A study of Mus musculus with 4 samples.

Results

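The mRNAs described here encode the proteins that run or steer pre-mRNA splicing. They were chosen by gene symbol among the protein-coding genes of the GENCODE M21 annotation, which gave 66 genes of 55480 annotated gene identifiers in the count table. The 66 fall into 13 genes of SR proteins (Srsf genes with Tra2a and Tra2b), 20 of hnRNPs (Hnrnp genes) and 25 of core spliceosome factors (Sf3a, Sf3b, Prpf and U2af genes). The other 8 are linked factors (Luc7l, Luc7l2, Luc7l3, Srrm1, Srrm2, Rbm25, Rbm39 and Son). The figures label these 8 RS-rich (for arginine and serine), which is a class name, and protein composition was not measured. The samples were CD31-positive cells of the caudal part of mouse embryos, wild type and at embryonic day 10; CD31 marks endothelial cells and some blood cells. RNA brought down with an antibody against RUNX1, a transcription factor needed for the first blood stem cells, was sequenced in 2 libraries, and RNA held by a non-specific antibody (IgG) in the other 2. Tissue, genotype and age were the same in all 4 libraries. The labels do not give the number of embryos or say that replicates came from separate embryos, so each p-value covers no more than the variation among these 4 libraries, possibly a technical one.

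The spliceosome cuts introns from pre-mRNA. Its small nuclear ribonucleoproteins (snRNPs) recognise the splice sites, and the SF3 complexes and U2AF mark the branch point and the 3′ splice site. SR proteins bind exonic enhancers, many of them rich in purines, through RNA recognition motifs and recruit the machinery through domains of repeated arginine and serine. The hnRNPs coat nascent RNA and often act against SR proteins. Many genes of both families hold poison exons or retained introns, through which the proteins lower their own mRNA. In the annotation at least 1 transcript classed as a target of nonsense-mediated decay was annotated for 11 of 13 SR genes, 10 of 20 hnRNP genes, 11 of 25 core genes and 8 of 8 linked genes, and for 30.1% of all tested protein-coding genes. A transcript with a retained intron was annotated for 77.3% of the 66 genes and for 62.6% of those coding genes. The tested splicing factor genes also had more annotated transcripts, with a median of 8 against 5.

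Depth ranged from 1675488 counts over genes in RUNX1 replicate 1, with 1887301 in its replicate 2, to 2482045 and 3843318 in IgG replicates 2 and 1. Transcripts of the mitochondrial chromosome took 0.601% and 0.526% of the counts in the RUNX1 libraries and 0.311% and 0.332% in the IgG libraries, and their part in the values below was not tested. Levels are given as CPM, counts per 1000000 gene counts, and fold changes compare the RUNX1 antibody with IgG relative to the typical gene. Synthetic spike-in RNAs took 356 and 378 of every 1000000 counts in the RUNX1 libraries and 129 and 175 in the IgG libraries, and scaling to them moved the median log2 fold change of all genes from 0.03 to -1.25. Summed markers of endothelial cells stood at 1414 and 1222 CPM against 1506 and 1413 with IgG, and none of the 8 was at 0 in any library. Both RUNX1 libraries were above both IgG libraries in 1 of the 8 and below both in 3. Over all tested genes these shares were 24.1% and 21.3%. Summed erythroid markers stood at 861 and 865 against 492 and 455 CPM, and all 7 tested were higher in both RUNX1 libraries. Neural markers summed to 633 and 518 against 388 and 380 CPM (3 of 5 above IgG in both libraries, 0 below). Mesenchymal markers summed to 919 and 894 against 931 and 874 (3 of 6 above, 2 below), and epithelial markers to 152 and 149 against 148 and 104 (1 of 4 above, 0 below). Macrophage markers came to 90.7 and 211 against 91.6 and 83.0 (0 of 2 tested above, 0 below). Platelet markers, with Gp1bb at 0 throughout, came to 37.0 and 66.2 against 61.9 and 53.2 (1 of 2 tested above, 1 below). The part of these other cells in the values below was not tested. The libraries hold precipitated RNA, so these marker sums do not measure the share of a cell type.

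Of the 66 genes, 63 passed the low-count filter and 0 were called at an edgeR adjusted p under 0.05 (quasi-likelihood test, Benjamini-Hochberg over 12401 genes), where 0.306% of all tested genes were called higher and 0.339% lower. Without adjustment, 8 of the 63 were higher and 10 lower at an edgeR p under 0.05, against backgrounds of 6.88% and 7.36%. All 10 lower genes were of at least 100 CPM, where the shares were close to those of equally abundant coding genes. There 10 of 42 splicing factor genes (23.8%) were lower and 6 (14.3%) higher, beside 22.9% and 12.3% of the 2245 coding genes. DESeq2 called 3 higher (Luc7l3, Prpf8 and Rbm25; background 1.98%) and 8 lower (Srsf1, Tra2a, Tra2b, Hnrnph1, Hnrnpd, Hnrnpa0, Luc7l2 and Sf3b1; background 2.77%). All 11 were of at least 100 CPM, where DESeq2 called 7.14% of the splicing factor genes higher and 19.0% lower, beside 6.77% and 12.7% of the coding genes. limma-voom called Luc7l3 and Rbm25 higher (background 0.823%) and Srsf1, Tra2a, Hnrnph1 and Hnrnpd lower (background 0.968%). From 100 CPM on limma-voom called 4.76% of the splicing factor genes higher and 9.52% lower, beside 3.61% and 5.12% of the coding genes. The genes not tested were Srsf12 (1, 7, 5 and 11 counts in RUNX1 replicates 1 and 2 and IgG replicates 1 and 2), Sf3a2 (2, 4, 15 and 5 counts) and U2af1l4, which had 0 counts in all 4 libraries.

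**Figure D1:**
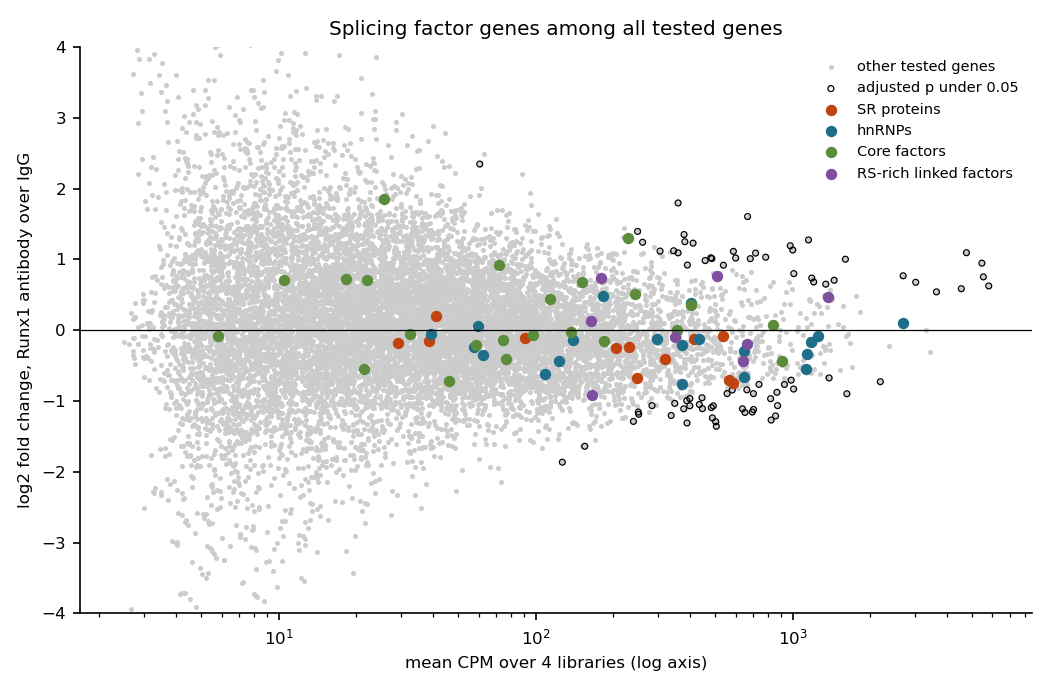
Each point is a tested gene, with its mean level over 4 libraries on a log axis against its log2 fold change between the RUNX1 antibody and IgG; the axis is limited to 4 in both directions. Coloured points are the 63 tested splicing factor genes by class and open black circles the genes called by edgeR; no coloured point carries a circle.

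Most mRNAs of SR proteins stood below their IgG level. Summed over the class they stood at 2827 and 2912 CPM in the RUNX1 libraries and at 3695 and 3770 in the IgG libraries, without overlap. Of 12 tested genes 11 had a fold change below 1 and 6 had both RUNX1 libraries under both IgG libraries, while 1 had both above. Among all tested genes such separation was found in 21.3% downwards and 24.1% upwards. The share downwards was 38.4% among the 2245 tested protein-coding genes of at least 100 CPM, and most SR genes were of that abundance. The median log2 fold change of the SR genes was -0.21, beside 0.03 for all tested genes and -0.15 for the abundant coding genes. Under the spike-in scaling the SR median was -1.52, or -0.27 relative to the median gene.

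Srsf1, a founding SR protein that acts in splicing and in mRNA export, stood at 397 and 486 CPM with the RUNX1 antibody and at 694 and 765 with IgG. Both RUNX1 libraries were lower than both IgG libraries, and they differed by a log2 fold change of -0.75 ± 0.16 (SE; edgeR adjusted p = 0.0865, DESeq2 5.75e-04, limma-voom 0.0327). With offsets fitted to the length and GC content of transcripts it was -0.36 ± 0.18 (edgeR adjusted p = 0.514). Tra2a, which binds GAA-rich enhancers in exons, stood at 472 and 397 against 692 and 700.2 CPM. Its log2 fold change was -0.71 ± 0.15 (edgeR adjusted p = 0.0847, DESeq2 9.39e-04, limma-voom 0.0294), and -0.63 ± 0.14 with those offsets (edgeR adjusted p = 0.146). Its paralog Tra2b had the same order of libraries, at 199 and 185 against 301 and 304 CPM. The log2 fold change of Tra2b was -0.68 ± 0.19 (edgeR adjusted p = 0.171, DESeq2 0.0359, limma-voom 0.138), and with the offsets it was -0.39 ± 0.19 (edgeR adjusted p = 0.510). In both Tra2 genes and Srsf1 the gap between the antibodies was wider than the gap between replicates.

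Srsf7, an SR protein with a zinc knuckle, stood at 261 and 291 against 399 and 322 CPM (log2 fold change -0.41 ± 0.19, edgeR adjusted p = 0.372). Srsf10, which acts as a repressor when dephosphorylated, stood at 182 and 196 against 227 and 213 CPM (-0.25 ± 0.21, edgeR adjusted p = 0.671). Without IgG replicate 1 Srsf7 was at -0.26, and with the offsets Srsf10 was at -0.05. In these genes the libraries were still ordered by antibody, but the distance between the groups was close to the distance within them. Srsf3, the smallest SR protein, stood at 541 and 509 against 520.1 and 571 CPM, and Srsf11 at 364 and 433 against 414 and 439.6 CPM. Their libraries overlapped between antibodies (-0.08 ± 0.15 and -0.12 ± 0.17, edgeR adjusted p = 0.866 and 0.818). Srsf9, outside the rule for named genes and chosen after its values were seen, was the SR gene with both RUNX1 libraries above IgG, at 47.7 and 40.3 against 36.7 and 38.7 CPM (0.19 ± 0.45, edgeR adjusted p = 0.907).

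**Figure D2:**
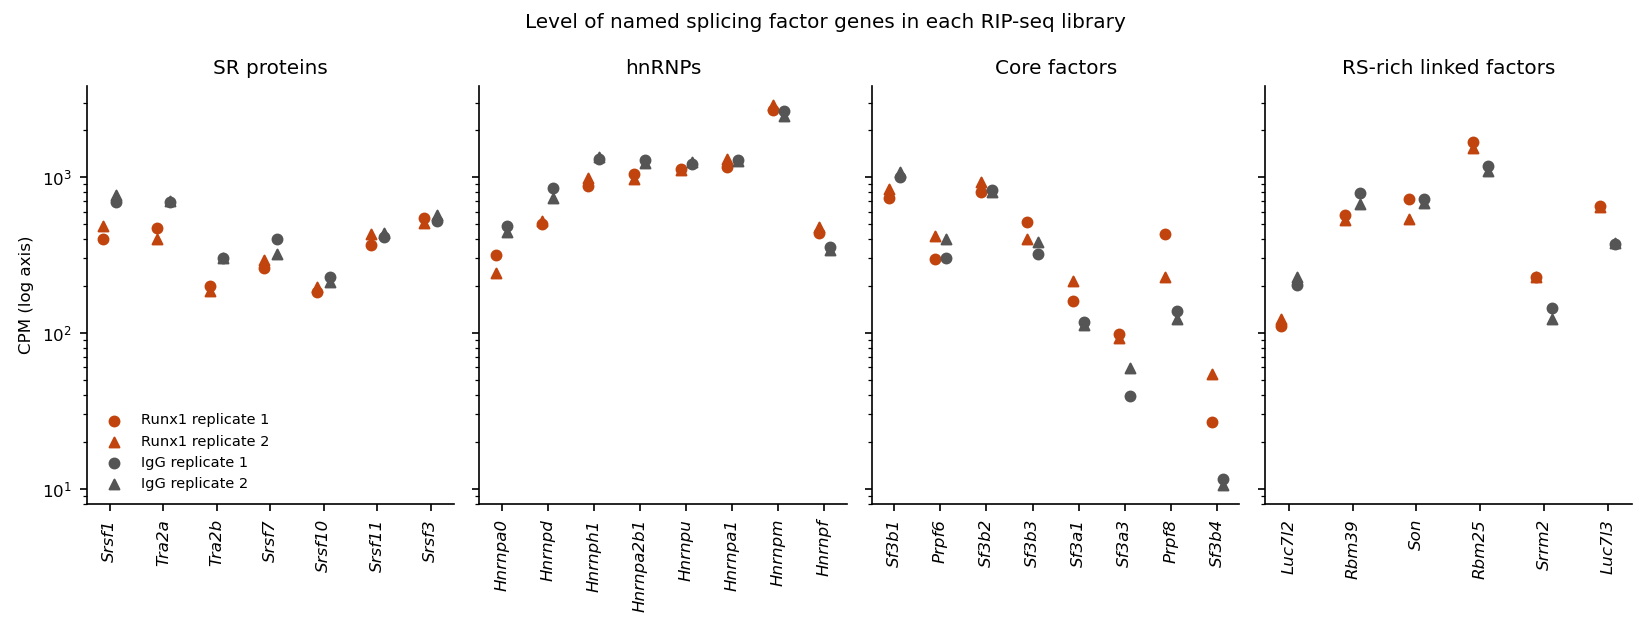
The level in each library, in CPM on a log axis, of the 29 named splicing factor genes, ordered within each class by fold change; red marks are RUNX1 antibody libraries and grey marks IgG libraries. Srsf1 lies at 397 and 486 against 694 and 765 CPM and Luc7l3 at 653 and 639.5 against 373 and 374 CPM, while the libraries of Srsf3 and Hnrnpa1 interleave.

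The hnRNP mRNAs held the highest summed level of the 4 classes, and most of them stood below IgG, as did most abundant coding genes. Their sum was 10726 and 10751 CPM in the RUNX1 libraries and 12138 and 11694 in the IgG libraries. Of 20 tested genes 16 had a fold change below 1, with 8 separated downwards (40.0%, beside 38.4% of the abundant coding genes) and 3 upwards. The median log2 fold change of the hnRNP genes was -0.19 (scaled to spike-ins -1.46, which is -0.20 from the median gene), and that of the abundant coding genes was -0.15. Among the 24 SR and hnRNP genes of at least 100 CPM, 14 (58.3%) were separated downwards and 3 (12.5%) upwards, beside 38.4% and 23.1% of the abundant coding genes. By class these were 6 of 8 SR genes and 8 of 16 hnRNP genes downwards. No test was made of this share, since the members were chosen with results of these data known.

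Hnrnph1, which binds runs of G, stood at 874 and 986 CPM with the RUNX1 antibody and at 1312 and 1348 with IgG (log2 fold change -0.54 ± 0.12, edgeR adjusted p = 0.0901, DESeq2 8.58e-04, limma-voom 0.0184). With the length and GC offsets the value of Hnrnph1 was -0.10 ± 0.15 (edgeR adjusted p = 0.869). Hnrnpd, known as AUF1, which binds AU-rich elements and speeds the decay of mRNAs, stood at 498 and 521 against 846 and 728 CPM (-0.66 ± 0.14, edgeR adjusted p = 0.0923, DESeq2 0.00114, limma-voom 0.0352). Its value with offsets was -0.22 ± 0.15 (edgeR adjusted p = 0.660). Hnrnpa0, a gene with a single coding exon that binds AU-rich elements too, stood at 318 and 243 against 486 and 444 CPM (-0.76 ± 0.19, edgeR adjusted p = 0.123, DESeq2 0.00600, limma-voom 0.0541). Its value moved away from 0 with the offsets, to -1.08 ± 0.21 (edgeR adjusted p = 0.104). All 3 genes had both RUNX1 libraries below both IgG libraries.

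Hnrnpa2b1, a packaging hnRNP of nascent RNA, stood at 1049 and 977 against 1282 and 1229 CPM (-0.34 ± 0.11, edgeR adjusted p = 0.217). Hnrnpf, the close relative of Hnrnph1, was on the other side, at 438 and 480.1 against 353 and 339 CPM (0.38 ± 0.16, edgeR adjusted p = 0.332). Near-identical stretches of Hnrnpf are carried by 9 other genes, so that its counts depend on how reads were shared. Its value with the offsets was 0.17 ± 0.16 (edgeR adjusted p = 0.771). Hnrnpu, a nuclear scaffold protein, stood at 1129 and 1112 against 1220 and 1249 CPM (-0.17 ± 0.11, edgeR adjusted p = 0.542) and at 0.32 ± 0.11 with the length and GC offsets (edgeR adjusted p = 0.324). Hnrnpm, the hnRNP gene with the highest level in CPM, stood at 2708 and 2896 against 2661 and 2479 CPM (0.10 ± 0.087, edgeR adjusted p = 0.696), with the RUNX1 libraries just above. Hnrnpa1, which represses exons and carries near-identical stretches in 9 other genes, overlapped between antibodies at 1166 and 1300 against 1289 and 1274 CPM (-0.08 ± 0.11, edgeR adjusted p = 0.814). Per kilobase of the representative transcript, Hnrnpm (683 CPM per kb), Hnrnpa2b1 (656) and Hnrnpa1 (655) stood at nearly the same mean level.

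**Figure D3:**
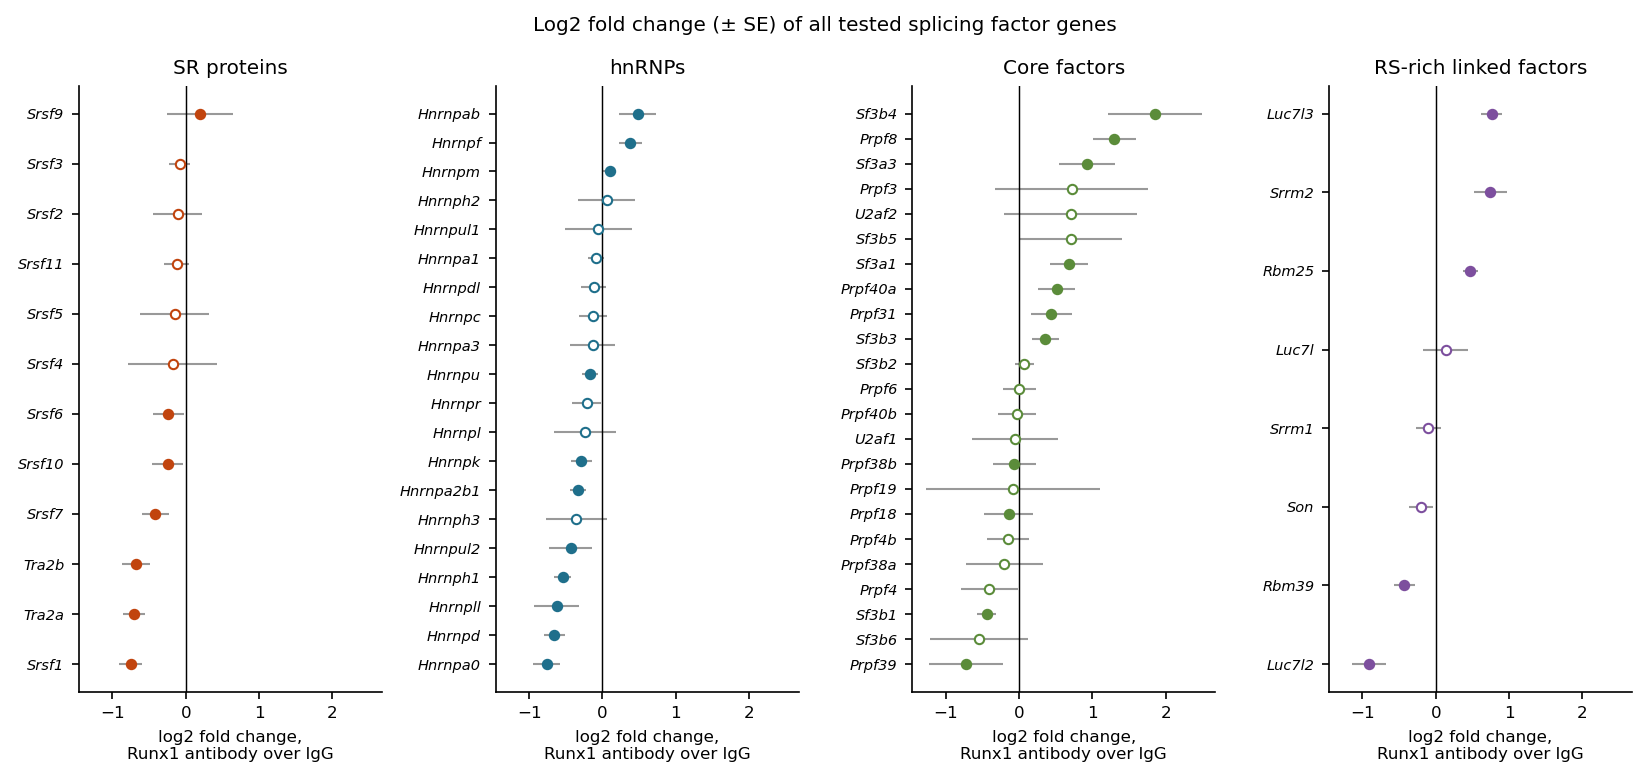
Log2 fold change between the RUNX1 antibody and IgG with its standard error (bars) for the 63 tested genes in 4 classes; filled points are genes whose RUNX1 and IgG libraries do not overlap, open points those that do. Values run from -0.91 (Luc7l2) to 1.85 (Sf3b4); 11 of 12 SR genes and 16 of 20 hnRNP genes lie left of 0, and under the spike-in scaling all of the points except Prpf8 and Sf3b4 would.

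The core factors had no common direction. Summed levels were 4223 and 4364 CPM in the RUNX1 libraries and 3916 and 4010 in the IgG libraries. The median log2 fold change was 0.00 over 23 tested genes, with 12 above 0 and 11 below, and 7 were separated upwards and 4 downwards (backgrounds 24.1% and 21.3%). The SF3A and SF3B genes, whose products sit on the branch point within the U2 snRNP, had a median of 0.52 over 8 tested genes. Of the 8, 4 (50.0%) were separated upwards and 1 (12.5%) downwards. The SF3 median was 0.49 with the length and GC offsets and -0.75 when scaled to spike-ins (0.50 from the median gene). The 13 Prpf genes had a median of -0.07, with 3 separated upwards and 3 downwards (23.1% each).

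Prpf8, which encodes the large protein at the catalytic centre of the spliceosome, stood at 430 and 227 CPM with the RUNX1 antibody and at 138 and 123 with IgG. Both RUNX1 libraries were above IgG, although they differed from each other by more than the lower of them differed from IgG. On the log2 scale Prpf8 differed by 1.30 ± 0.30 (edgeR adjusted p = 0.102, DESeq2 9.09e-04, limma-voom 0.0632), and 1.44 ± 0.30 with the length and GC offsets (edgeR adjusted p = 0.116). Without RUNX1 replicate 2 the log2 fold change of Prpf8 was 1.67, and without RUNX1 replicate 1 it was 0.75. Sf3b1, the large subunit that holds the branch site and a frequent target of mutation in myeloid disease in humans, lay the other way at 729 and 832 against 1000.2 and 1076 CPM (-0.44 ± 0.13, edgeR adjusted p = 0.185, DESeq2 0.0241, limma-voom 0.102). With the length and GC offsets it stood at -0.05 ± 0.14 (edgeR adjusted p = 0.947).

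Sf3b4, another SF3B subunit, had 45 and 102 counts in the RUNX1 libraries and 44 and 26 in the IgG libraries, or 26.9 and 54.0 against 11.4 and 10.5 CPM. Its log2 fold change of 1.85 ± 0.64 was the widest of the 63 tested genes and did not pass (edgeR adjusted p = 0.243, limma-voom 0.216, none given by DESeq2). Without RUNX1 replicate 2 it was 1.24. Sf3a1 stood at 161 and 215 against 117 and 113 CPM (0.68 ± 0.26, edgeR adjusted p = 0.287) and its partner Sf3a3 at 97.9 and 92.2 against 39.0 and 59.2 CPM (0.93 ± 0.38, edgeR adjusted p = 0.316). In both SF3A genes the RUNX1 libraries lay above IgG, but Sf3a1 was at 0.43 without RUNX1 replicate 2 and Sf3a3 at 0.61 with the offsets. Sf3b3 stood at 514 and 402 against 321 and 380 CPM (0.36 ± 0.19, edgeR adjusted p = 0.439), and its exons overlap other genes on the same strand. Sf3b3 was at 0.15 without RUNX1 replicate 1 and at 0.23 without IgG replicate 1. Sf3b2, at 798 and 935 against 821 and 798 CPM, and Prpf6, a bridge within the tri-snRNP, at 296 and 418 against 302 and 399 CPM, did not separate (0.07 ± 0.13 and 0.001 ± 0.23, edgeR adjusted p = 0.880 and 0.999). Estimates for the SF3B subunits, which work as a single complex, ran from -0.54 (Sf3b6, named after its value was seen) to 1.85 (Sf3b4), both genes of few counts. Sf3b6 had 39 and 23 counts in the RUNX1 libraries and 124 and 45 in the IgG libraries. Its libraries overlapped (-0.54 ± 0.67, edgeR adjusted p = 0.791). The subunits of at least 100 CPM, Sf3b1, Sf3b2 and Sf3b3, ran from -0.44 to 0.36.

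Among the linked factors Luc7l3 came nearest to the threshold. Of 8 tested genes 3 were separated upwards (37.5%, background 24.1%) and 2 downwards (25.0%, background 21.3%), and the median was 0.02. Luc7l3, a protein related to the yeast U1 snRNP subunit Luc7, stood at 653 and 639.5 CPM with the RUNX1 antibody and at 373 and 374 with IgG. The replicates of each antibody nearly coincided. Its log2 fold change of 0.76 ± 0.14 had the smallest adjusted p of the 63 genes (edgeR adjusted p = 0.0656, DESeq2 3.01e-04, limma-voom 0.0168), and with the length and GC offsets it was called at 1.10 ± 0.15 (edgeR adjusted p = 0.0257). Under the spike-in scaling Luc7l3 stood at -0.52, or 0.74 relative to the median gene. Its paralog Luc7l2, which is mutated or deleted in some human myeloid disorders, lay on the opposite side at 110.4 and 123 against 204 and 227 CPM (-0.91 ± 0.24, edgeR adjusted p = 0.145, DESeq2 0.0182, limma-voom 0.122). With the length and GC offsets Luc7l2 was at -0.68 ± 0.24 (edgeR adjusted p = 0.336). The third paralog, Luc7l, outside the rule for named genes, overlapped at 162 and 184 against 196 and 113 CPM (0.13 ± 0.30, edgeR adjusted p = 0.905).

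Rbm25, which binds exonic enhancers and the U1 snRNP, stood at 1677 and 1543 CPM in the RUNX1 libraries against 1177 and 1097 with IgG (0.47 ± 0.11, edgeR adjusted p = 0.0984, DESeq2 0.00247, limma-voom 0.0168). With the length and GC offsets Rbm25 was called at 0.90 ± 0.11 (edgeR adjusted p = 0.0217). Srrm2, a scaffold of nuclear speckles, stood at 227.4 and 226.8 against 143 and 122 CPM (0.74 ± 0.23, edgeR adjusted p = 0.197). Its partner in the speckle core, Son, did not separate, at 719 and 536 against 725 and 681 CPM (-0.20 ± 0.16, edgeR adjusted p = 0.669). Rbm39, a relative of U2AF and the protein degraded under indisulam, lay lower at 571 and 531 against 783 and 673 CPM (-0.43 ± 0.14, edgeR adjusted p = 0.227).

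Several of the linked messages carry long purine-rich stretches in the coding sequence, a feature that the symbol rule did not use. They are shown for the LUC7-like paralogs, Rbm25 and Rbm39 because genes with such stretches stood both above and below IgG. Each is the 60-base stretch of the coding sequence with the most purines, read 5′ to 3′ on the mRNA sense from the GENCODE M21 transcripts (mm10), with every GAA in capitals. The first pair lies at chr11:94297060-94297119 (minus strand, Luc7l3, higher) and chr6:38593390-38593449 (plus strand, Luc7l2, lower), the other three at chr17:26277558-26277617 (plus, Luc7l, overlapping), chr12:83663984-83664043 (plus, Rbm25, higher) and chr2:156172929-156172988 (minus, Rbm39, lower), each within a single exon.
Luc7l3: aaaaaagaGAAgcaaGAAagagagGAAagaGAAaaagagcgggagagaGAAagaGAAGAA
Luc7l2: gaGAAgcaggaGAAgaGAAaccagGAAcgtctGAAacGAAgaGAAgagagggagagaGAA
Luc7l: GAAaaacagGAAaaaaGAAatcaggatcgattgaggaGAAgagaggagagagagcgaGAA
Rbm25: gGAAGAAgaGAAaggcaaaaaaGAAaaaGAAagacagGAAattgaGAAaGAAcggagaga
Rbm39: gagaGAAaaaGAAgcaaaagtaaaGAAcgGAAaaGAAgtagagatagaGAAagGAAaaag

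Purines made up 96.7% of the stretch in Luc7l3, 91.7% in Rbm25 and in Rbm39, and 86.7% in Luc7l2 and in Luc7l. A stretch at least as rich was found in 0.459%, 1.92% and 5.17% of all tested protein-coding genes in that order. The stretches of Srrm1, Son and Prpf6, whose libraries overlapped between antibodies, also held 91.7% purines. The hexamer GAAGAA, counted on the sense strand with overlaps allowed, occurred 9.15 times per kilobase of coding sequence in Rbm25, 4.07 in Luc7l3, 3.40 in Luc7l2, 2.52 in Rbm39 and 1.80 in Luc7l. Tested genes not shown were denser in it than Luc7l3 without being higher. They were Sf3b2 (6.07), Sf3b6 (5.33), Srrm1 (4.69) and Prpf38a (4.27), which overlapped between antibodies, and Hnrnpu (4.17), which was lower. At least 1 copy of GAAGAA was in the coding sequence of 58 of the 66 splicing factor genes and of 74.5% of all tested protein-coding genes, and its reverse complement in 29 of the 66 and in 47.3%. Across the 63 tested genes the density of GAAGAA and the log2 fold change had a Spearman rho of 0.04, and over the 42 of at least 100 CPM one of 0.27, beside -0.04 and 0.09 over all and abundant coding genes. The percentage of A in the coding part gave -0.20 over the 63 genes. These are descriptions over genes of the same libraries. A match of letters is no site, and no binding was measured here.

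Coefficients of the fold change with transcript and coding length differed in sign between these genes and all coding genes, and those with the length of the 3′ UTR did not. Neither comparison was tested. Over 10681 tested protein-coding genes the Spearman rho of the log2 fold change with the length of the representative transcript was -0.28, and over the 63 splicing factor genes it was 0.11. For the coding length the values were -0.17 and 0.28. Restricted to genes of at least 100 CPM, coding length gave -0.15 over 2245 coding genes and 0.45 over 42 splicing factor genes. The length of the 3′ UTR gave -0.23 over all coding genes and -0.32 over the splicing factor genes (-0.34 and -0.18 from 100 CPM on). GC content of the transcript gave 0.26 over all coding genes and 0.38 over the splicing factor genes. The SR genes had the shortest coding parts (median 798 bases, against 1304 in hnRNPs, 1626 in core factors and 2052 in linked factors). These coefficients are descriptions without a test, since the genes share 4 libraries and are not independent.

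**Figure D4:**
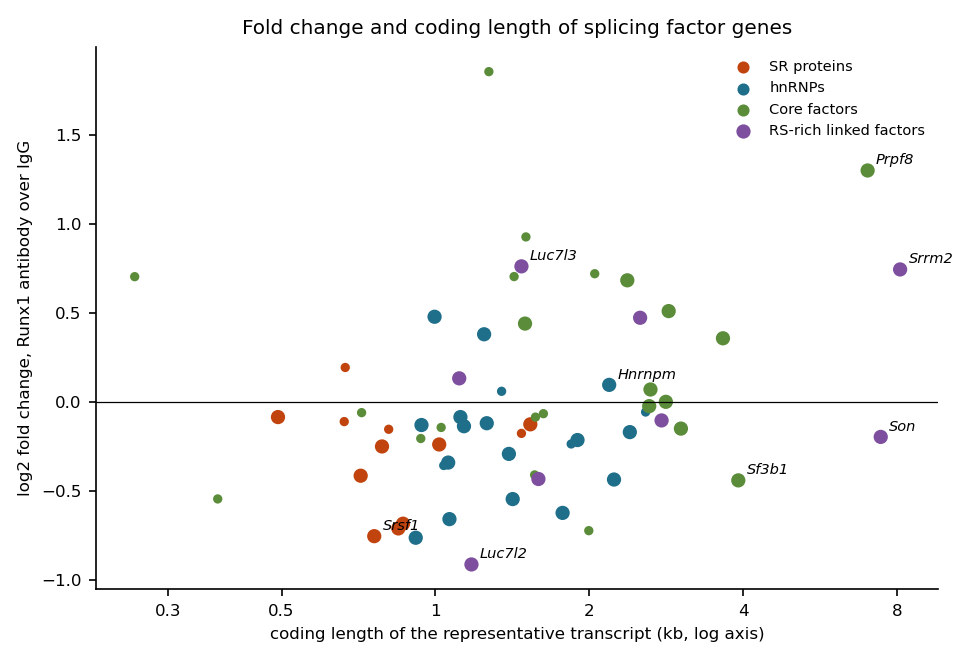
Coding length of the representative transcript in kb (log axis) against the log2 fold change between the RUNX1 antibody and IgG for the 63 tested splicing factor genes; large points have a mean of at least 100 CPM. Prpf8 (1.30) and Srrm2 (0.74) lie at the long end above 0 and Son (-0.20) beside them below it, while Srsf1 (-0.75) and Luc7l2 (-0.91) lie among short coding parts.

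Other genes of the pathway were taken from 4 lists, and 0 of their 56 tested genes were called by edgeR (backgrounds 0.306% higher and 0.339% lower). At an unadjusted edgeR p under 0.05, 10 were higher (17.9%, background 6.88%) and 2 lower (3.57%, background 7.36%). DESeq2 called 2 higher (3.57%, background 1.98%) and 0 lower (background 2.77%). With limma-voom 0 were called (backgrounds 0.823% and 0.968%). Both RUNX1 libraries were above both IgG libraries in 28 of the 56 (50.0%, background 24.1%) and below both in 7 (12.5%, background 21.3%). These genes were less abundant, with a median of 50.5 CPM beside 307 CPM for the SR and hnRNP genes. Below 100 CPM 20 of 44 (45.5%) were separated upwards and 5 (11.4%) downwards, beside 24.1% and 17.2% of coding genes of that level. From 100 CPM on it was 8 of 12 (66.7%) and 2 (16.7%), beside 23.1% and 38.4%. Their difference from the SR and hnRNP genes was not tested. Of 23 tested proteins of the snRNPs (the Sm ring, the LSm ring and particle-specific proteins), 10 (43.5%) were separated upwards and 3 (13.0%) downwards. Their median log2 fold change was 0.60. The Sm protein gene Snrpb stood at 263 and 299 against 153 and 132 CPM (0.95 ± 0.22, edgeR adjusted p = 0.0990, DESeq2 0.00484, limma-voom 0.0567), and with the offsets at 0.59. Another Sm protein gene, Snrpd3, had 3 and 6 counts in the RUNX1 libraries and 66 and 64 in the IgG libraries, and so lay lower, at 1.79 and 3.18 against 17.2 and 25.8 CPM (-3.10 ± 0.88, edgeR adjusted p = 0.174, limma-voom 0.451).

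Of 17 genes of the Prp19 complex and the catalytic steps, 11 (64.7%) were separated upwards and 0 downwards, with a median of 0.38. The backgrounds for this and the next 2 lists were 24.1% upwards and 21.3% downwards. Ppil1, a cyclophilin of that complex, stood at 69.8 and 70.5 against 25.2 and 39.1 CPM (1.10 ± 0.43, edgeR adjusted p = 0.301), and the scaffold gene Plrg1 at 58.5 and 69.9 against 10.7 and 41.5 CPM (1.29 ± 0.63, edgeR adjusted p = 0.405). Ppil1 was at 0.66 with the offsets, and Plrg1 at 0.59 without IgG replicate 1 and at 2.54 without IgG replicate 2. Of 9 genes of the exon junction complex and its partners, 5 (55.6%) were separated upwards and 1 (11.1%) downwards (median 0.37). The speckle protein gene Pnn stood at 344 and 358 against 216 and 192 CPM (0.75 ± 0.19, edgeR adjusted p = 0.127, DESeq2 0.0126, limma-voom 0.0788), and the helicase gene Eif4a3 at 158 and 173 against 101 and 114 CPM (0.60 ± 0.26, edgeR adjusted p = 0.340, and 0.14 with the offsets). Of 7 tested kinases that phosphorylate SR proteins, 2 (28.6%) were separated upwards and 3 (42.9%) downwards. The median of the kinases was -0.38, and 0.06 with the length and GC offsets. The cytoplasmic kinase gene Srpk1 stood at 147 and 201 against 91.1 and 120.5 CPM (0.69 ± 0.29, edgeR adjusted p = 0.328) and the nuclear kinase gene Clk1 at 64.5 and 52.5 against 104 and 131 CPM (-1.03 ± 0.33, edgeR adjusted p = 0.214). Srpk1 was at 0.42 without RUNX1 replicate 2 and Clk1 at -0.65 with the offsets. With the offsets the medians of the snRNP, Prp19 and exon junction lists were 0.33, 0.45 and 0.27. Under the spike-in scaling all 4 medians were below 0 (-0.66, -0.95, -0.93 and -1.66, the last for the kinases), and relative to the median gene they were 0.60, 0.31, 0.32 and -0.40.

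**Figure D5:**
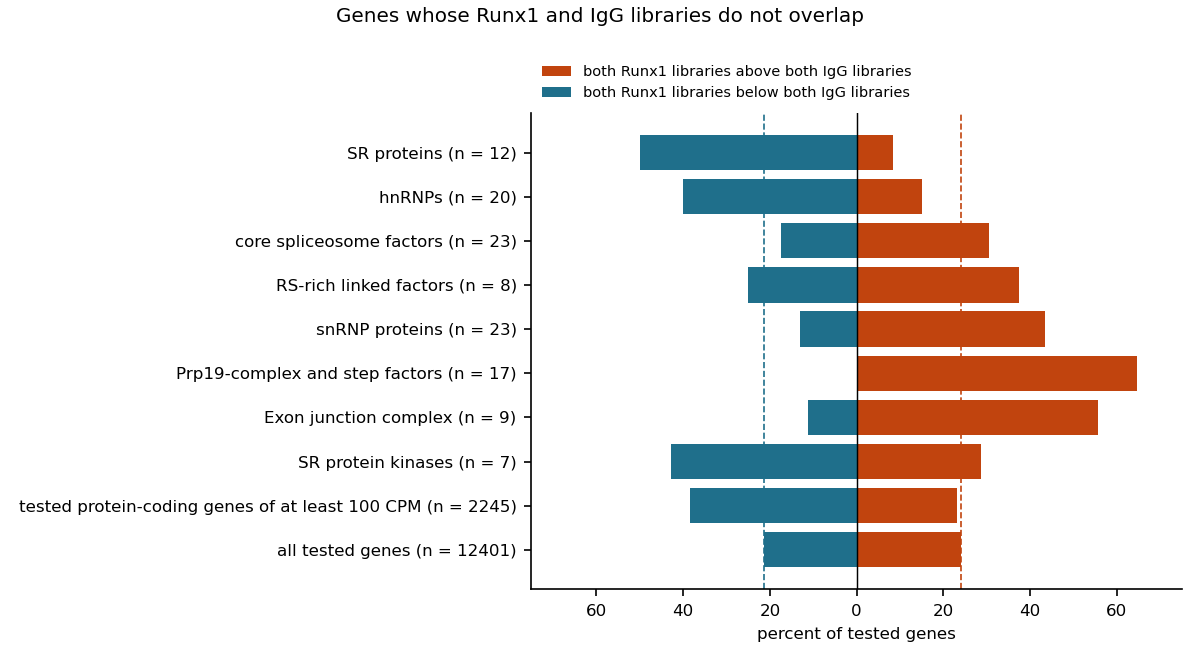
Percent of tested genes in each class or list with both RUNX1 libraries above both IgG libraries (right) or below both (left); n is the number tested, and dashed lines mark the values of all tested genes, 24.1% and 21.3%. SR proteins (50.0% left) and hnRNPs (40.0% left) extend to the left, as do the abundant coding genes (38.4%), and the Prp19 list (64.7% right) to the right; under the spike-in scaling the medians of all these groups lie below 0.

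In the mm10 annotation Srsf1 lies on chromosome 11 (88047373 to 88053755), Tra2a on chromosome 6 (49243924 to 49264033), Tra2b on chromosome 16 (22244549 to 22266005), Hnrnph1 on chromosome 11 (50376990 to 50386528) and Hnrnpd on chromosome 5 (99955935 to 99978938). Luc7l3 (94287890 to 94321988) and Prpf8 (75486816 to 75509449) lie on chromosome 11, Luc7l2 on chromosome 6 (38551334 to 38609470), Rbm25 on chromosome 12 (83631236 to 83683123) and Sf3b1 on chromosome 1 (54985169 to 55027481). Near-identical stretches of at least 200 bases in other genes were found for 26 of the 66 genes, the most for Hnrnpa3 (27 genes), and of the leading genes for Tra2b (4), Hnrnpd (1) and Luc7l2 (1). Exons overlap genes of the opposite strand in 23 of the 66, among them Srsf1, Hnrnpd, Luc7l2, Srrm2 and Rbm25, and genes of the same strand in 5. Counts of these genes are uncertain to the extent that reads could be split or shared.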

How the data were processed

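RNA immunoprecipitation sequencing (RIP-seq) measured the RNA held by an antibody against RUNX1 or by IgG, in 2 libraries each. The deposited table holds whole-number counts per gene, which the authors made; the submitters' processing notes name Trimmomatic 0.36, STAR 2.7.3a, Salmon 1.1.0 and mm10, with no role or order. No source used here gives the counting annotation or its use of strand. From 55573 gene identifiers, 55480 were matched to GENCODE M21, and 92 spike-in rows stayed out of library sizes.

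The test was the quasi-likelihood test of edgeR 4.0.16 under R 4.3.3 (TMM scaling, low-count filter with a minimum count of 10, no block), with Benjamini-Hochberg adjustment over all 12401 tested genes. The script was tested on simulated data. A count of 3, taken as the floor, equals 1.79, 1.59, 0.781 and 1.21 CPM in RUNX1 replicates 1 and 2 and IgG replicates 1 and 2, for counting error only. The biological coefficient of variation was 46.1%. An exact permutation test of 2 against 2 libraries cannot go below p = 0.333, so none was made for single values. Alternatives were DESeq2 1.42.0, limma-voom (limma 3.58.1), other scalings, spike-ins, spline offsets for length and GC content (5 degrees of freedom), other filters, a replicate block and leaving out each library. Near-identical copies were sought with blastn 2.17.0 (at least 200 bases at 95%).

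The members and lists were chosen with earlier results of these data known. Named genes are, in each class, the 5 with the smallest p and the 4 with the highest mean CPM, and in each other list the 2 with the smallest p. Shares among genes above or below 100 CPM were added after the values were seen. The SF3 and Prpf groups within the core class were not planned.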

Additional observations from a re-analysis of the deposited data

How the results depend on the processing

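Over all tested genes edgeR called 38 higher and 42 lower. DESeq2 called 246 and 344, limma-voom 102 and 120, edgeR without a low-count filter 224 and 325, with a stricter filter 125 and 159, with length and GC offsets 23 and 4, and with spike-in scaling 19 and 3914. Leaving out each library in turn gave 95 to 248 higher and 81 to 352 lower. Of the 63 splicing factor genes DESeq2 called 3 higher and 8 lower (backgrounds 1.98% and 2.77%) and limma-voom 2 and 4 (0.823% and 0.968%). Without a filter edgeR called 2 and 6, with the stricter filter 3 and 5, and with the offsets 2 and 0. Spike-in scaling called 0 and 43 of the 63, beside 19 and 3914 of 12401 tested genes. The median level of the 63 genes was 184 CPM, beside 29.1 CPM for all tested genes. The cause of these differences was not tested.

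With the replicate block 2 genes were called higher and 0 lower in all, and 0 splicing factor genes. The labels do not say that the numbers pair libraries, and same-numbered libraries correlated at 0.0044 in their deviations from the group means. With 2 libraries per antibody the crossed value is its negative by construction.

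The class medians under spike-in scaling were -1.52 (SR), -1.46 (hnRNP), -1.26 (core) and -1.29 (linked). The core and linked medians were 0.23 and 0.16 with the length and GC offsets. Leaving out a library gave medians of -0.40 to -0.22 (SR), -0.26 to -0.19 (hnRNP), -0.13 to 0.22 (core) and -0.12 to 0.17 (linked).

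Prpf6, at 0.001, changed sign under DESeq2 (-0.0061), DESeq2 size factors (-0.0064), no filter (-0.037), the replicate block (-0.0088), the offsets (-0.24) and spike-in scaling (-1.26), and without RUNX1 replicate 2 (-0.29) or IgG replicate 1 (-0.20). Leaving out a library gave -0.29 to 0.20 for Prpf6 and -0.073 to 0.15 for Sf3b2. Sf3b2 changed sign without RUNX1 replicate 2 (-0.073) and with the offsets (-0.19), as did Hnrnpu (0.32), Son (0.073) and Srsf3 (0.16) with the offsets. Spike-in scaling put below 0 the values of Eif4a3 (-0.67), Hnrnpf (-0.90), Hnrnpm (-1.19), Luc7l3 (-0.52), Pnn (-0.54), Ppil1 (-0.13), Rbm25 (-0.81), Sf3a1 (-0.61), Sf3a3 (-0.31), Sf3b2 (-1.21), Sf3b3 (-0.90), Snrpb (-0.35), Srpk1 (-0.56) and Srrm2 (-0.55). With 2 libraries per antibody and at most 3843318 counts in each, genes of few counts such as Srsf12 and Sf3a2 gave no test.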
